A study of Mus musculus with 319 samples.

Results

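The cells described here are thymic tuft cells with a high level of Fos, an immediate early transcription factor gene. Wells with 1 sorted cell were kept if they held 10000 or more gene reads (reads on genes other than the ERCC spike-ins) and reads of 1000 or more genes, with no more than 20% of gene reads on mitochondrially encoded genes. The members were chosen by their measured Fos level, at 1000 CPM or more (gene reads scaled to an equal total per cell), and are called Fos-high. Cells with Fos below 50 CPM are called Fos-low. Of 301 kept cells, 45.2% were Fos-high (39 cells of Aire-/- batch 2, 54 of wild-type (WT) batch 2, 35 of WT June29 and 8 of WT June5), 87 cells were Fos-low and 78 lay between and are called intermediate. Because the Fos level set the classes, it is given as a description and was not tested.

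The cells were sorted from naive mice of mixed sex as negative for UVBlue, CD11c and CD45, positive for EPCAM and Flare25, and low for MHC class II. Flare25 is a reporter allele of Il25, the tuft cell cytokine gene, and every group carried it on both chromosomes (Flare25/Flare25). The group Aire-/- batch 2 was labelled Flare25/Flare25 Aire-/- on the strain C57BL/6.Il25.Aire, at 6 weeks of age with 1 well labelled 5 weeks, and gave 96 kept cells. The wild-type (WT) sets, labelled Flare25/Flare25 on the strain C57BL/6.Il25 at 6 weeks, gave 89 kept cells in WT batch 2, 87 in WT June29 and 29 in WT June5, the last 2 from batch 1. Polyadenylated RNA of each cell was sequenced by Smart-seq2, a full-length method without molecular identifiers. Thymi were minced and digested with enzymes before the sort in all sets, so transcription that was present in the thymus and transcription that began during preparation cannot be told apart. The labels tie no cell to an animal, so each set counts as 1 sample and p-values measure the spread among 4 sets, which may be technical.

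Immediate early genes need no new protein to be transcribed, and encode transcription factors such as the AP-1 family (Fos and Jun proteins, which bind DNA as pairs) and the EGR family. Growth factor, stress and calcium signals reach them through MAP kinases, serum response factor (SRF) and CREB, and their products include feedback regulators that remove the same signals and messages again. Tuft cells are chemosensory epithelial cells whose taste-like cascade runs through phospholipase C, calcium release and the channel TRPM5. Early genes are also known to be switched on in many tissues while they are taken apart into single cells.

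The promoters of 4 early genes are shown because Fos set the classes and Fosb, Zfp36 and Btg2 passed the test described further on. Each is the 250 bases before the transcription start, 5′ to 3′ on the gene's strand, from RefSeq on GRCm38.p6. Capitals mark matches to the CRE, the CREB element TGACGTCA, to its core TGACG (searched on both strands) and to the CArG box, the element of SRF. The Fos promoter lies at chr12:85473640-85473889 on the plus strand, the Fosb promoter at chr7:19310046-19310295 on the minus strand, the Zfp36 promoter at chr7:28379229-28379478 on the minus strand and the Btg2 promoter at chr1:134079156-134079405 on the minus strand.
Fos: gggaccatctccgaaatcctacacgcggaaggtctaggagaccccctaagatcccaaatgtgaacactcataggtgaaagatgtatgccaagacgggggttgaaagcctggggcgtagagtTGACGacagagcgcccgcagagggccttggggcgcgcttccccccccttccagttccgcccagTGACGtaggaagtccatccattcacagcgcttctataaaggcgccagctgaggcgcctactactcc
Fosb: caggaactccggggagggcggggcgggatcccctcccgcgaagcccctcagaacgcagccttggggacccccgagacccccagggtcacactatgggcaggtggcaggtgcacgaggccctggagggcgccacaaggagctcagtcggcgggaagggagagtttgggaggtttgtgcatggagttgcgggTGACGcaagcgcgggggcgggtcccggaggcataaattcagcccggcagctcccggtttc
Zfp36: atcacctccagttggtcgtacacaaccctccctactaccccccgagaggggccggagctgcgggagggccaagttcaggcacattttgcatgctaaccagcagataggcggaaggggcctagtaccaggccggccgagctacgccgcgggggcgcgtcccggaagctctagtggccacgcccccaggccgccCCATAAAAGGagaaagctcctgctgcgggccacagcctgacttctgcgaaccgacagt
Btg2: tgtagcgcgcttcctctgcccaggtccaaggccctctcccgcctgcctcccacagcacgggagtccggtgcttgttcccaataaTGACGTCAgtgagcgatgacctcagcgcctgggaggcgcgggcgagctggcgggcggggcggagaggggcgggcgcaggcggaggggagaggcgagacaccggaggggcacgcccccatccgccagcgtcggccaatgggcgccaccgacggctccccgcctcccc
The TGACG core occurred 2 times before the start of Fos, with the nearer one 66 bases away, and 60 bases before that of Fosb. Zfp36 had a CArG box 58 bases before its start, and Btg2 a whole CRE, which contains the core. The windows of Fos and Fosb held no CArG box, but bases further from the start were not searched. Among 32851 promoter windows of the same length, 17.8% held the core, 1.55% a CRE and 1.47% a CArG box. Egr2 has 5 start sites in that table, and 4 of their windows held a CArG box. The window of Jun held no match, those of Junb and Atf3 held the core and that of Dusp1 held a CRE. A match is a description of letters and not of a factor bound there.

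Fos itself spanned the whole range between no read and 12121 CPM. Fos-high cells had a median of 1736 CPM (1015 to 8920) in Aire-/- batch 2, 3212 CPM (1009 to 12121) in WT batch 2, 1950 CPM (1123 to 7422) in WT June29 and 3845 CPM (1312 to 7135) in WT June5. The Fos-low cells had medians of 0.597, 2.13, 3.47 and 5.28 CPM in Aire-/- batch 2, WT batch 2, WT June29 and WT June5. Of the 87 Fos-low cells, 29 had no Fos read. The levels ran on across the upper limit without a gap. The 3 members just inside it had 1009, 1015 and 1093 CPM and the 3 cells just outside it 981, 976 and 955 CPM. At the lower limit the nearest Fos-low cells had 47.98, 47.88 and 45.65 CPM and the nearest cells outside 69.6, 74.3 and 78.5 CPM.

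**Figure D1:**
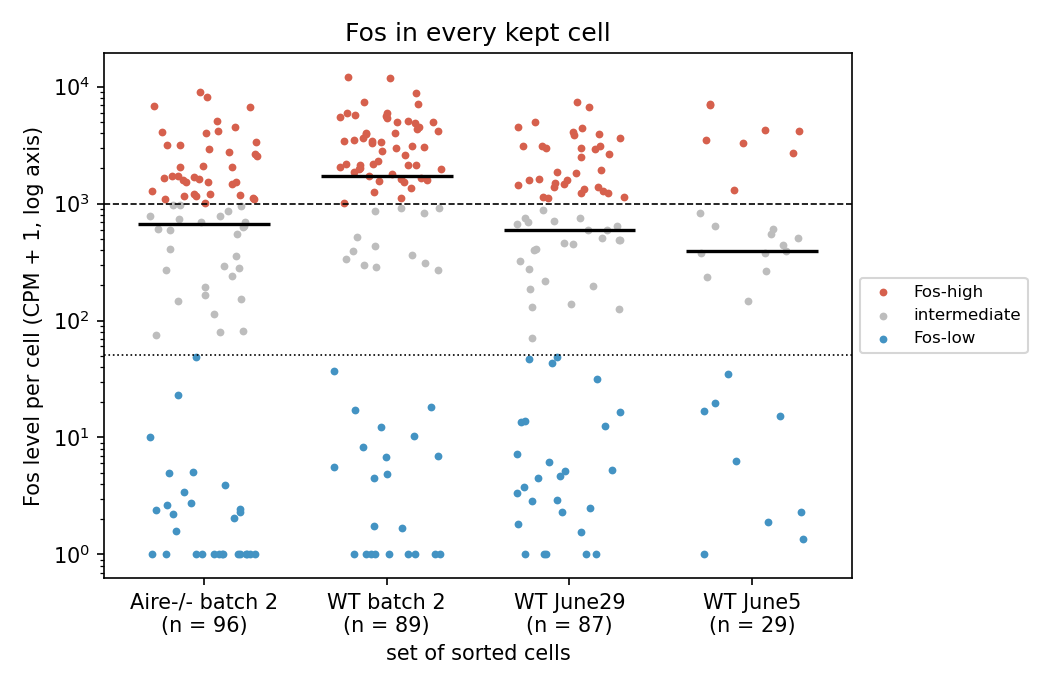
Fos level of each of the 301 kept cells (points, CPM plus 1 on a log axis) by set, with the median of each set as a black line and the limits of the Fos-high class (dashed) and the Fos-low class (dotted). WT batch 2 has its median above the upper limit, at 1707 CPM, and the other 3 sets have theirs between the limits, at 672, 595 and 394 CPM.

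Fos-high cells made up 40.6% of kept cells in Aire-/- batch 2 (39 of 96, exact Clopper-Pearson 95% interval 30.7 to 51.1%), 60.7% in WT batch 2 (54 of 89, 49.7 to 70.9%), 40.2% in WT June29 (35 of 87, 29.9 to 51.3%) and 27.6% in WT June5 (8 of 29, 12.7 to 47.2%). The deposited sample table divides Aire-/- batch 2 and WT batch 2 by a further batch number. Under number 1 the share was 41.7% of Aire-/- cells (20 of 48) and 66.7% of WT cells (32 of 48), and under number 2 it was 39.6% of Aire-/- cells (19 of 48) and 53.7% of WT cells (22 of 41). The share was thus lower in the cells labelled Aire-/- under each number, with intervals that overlapped. Genotype and pool cannot be told apart here, and the intervals cover counting error only. Fos-low cells took 30.2% of Aire-/- batch 2, 24.7% of WT batch 2, 31% of WT June29 and 31% of WT June5.

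Kept cells had 45266 to 2927690 gene reads. Aire transcript was counted in 33.3% of the cells labelled Aire-/- (32 of 96 with 5 or more reads) and in 7.87%, 8.05% and 17.2% of WT batch 2, WT June29 and WT June5 cells. Read counts per gene do not show which part of Aire an allele lacks, so this does not check the genotype label. RNA quality differed less between classes in batch 2, with median mitochondrial shares of 3.09% in Fos-high and 2.95% in Fos-low cells labelled Aire-/-, and of 4.27% in Fos-high and 5.54% in Fos-low cells of WT batch 2. The batch 1 sets differed in opposite directions. In WT June29 the median mitochondrial share was 5.81% in Fos-high and 12.2% in Fos-low cells and the median spike-in share 18.8% in Fos-high and 41.9% in Fos-low cells. In WT June5 the mitochondrial share was 8.39% in Fos-high and 3.03% in Fos-low cells and the spike-in share 47.5% in Fos-high and 26.4% in Fos-low cells. The part of RNA quality in the differences below was not tested, and every comparison pairs the classes within a set.

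Most tuft markers were read in the median cell of both classes, but not in every cell. A Fos-high cell had 5 or more reads on a median of 22 of 30 tuft markers (range 1 to 29), and a Fos-low cell likewise on a median of 22 (range 10 to 28). The lowest number in a Fos-high cell was 1 in Aire-/- batch 2 and 5 in WT batch 2. No cell was left out for having few tuft markers. Avil, the villin-like actin regulator of tuft cells, was read in 98.5% of Fos-high and 100% of Fos-low cells, and stood at 4480, 2818, 3444 and 3234 CPM in the summed Fos-high cells of Aire-/- batch 2, WT batch 2, WT June29 and WT June5. In the summed Fos-low cells of the same sets Avil stood at 4368, 3322, 2650 and 4775 CPM. Avil was higher in Fos-high cells of Aire-/- batch 2 and WT June29 and lower in those of WT batch 2 and WT June5. Trpm5, the cation channel of taste transduction, was read in 98.5% of Fos-high and 100% of Fos-low cells. Gnb3, a G protein beta subunit, was read in 88.2% of Fos-high and 87.4% of Fos-low cells, and Il25 in 47.8% of Fos-high and 48.3% of Fos-low cells.

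The genes were compared between Fos-high and Fos-low cells in 2 ways, both with the set as a block and with Fos left out of the genes tested. First, the reads of all cells of 1 class and set were added up and tested with edgeR's quasi-likelihood test with Benjamini-Hochberg adjustment, which called 0 of 11569 genes higher and 0 lower at an adjusted p of 0.05. At an unadjusted p under 0.05, edgeR had 199 genes higher (1.72%) and 93 lower (0.804%). DESeq2 on the same sums called 1.16% of genes higher and 0.259% lower (30 genes). A sum can rest on few cells, so limma was also run on the mean over cells of log2(CPM + 1) in each set and class, for 9221 genes with 5 or more reads in at least 10% of kept cells. That fit was added after the data were seen. It called 6 genes higher, 0.0651% of those tested, and 0 lower, and all 6 were early genes, namely Fosb, Egr2, Zfp36, Btg2 and the state markers Junb and Egr1. Since Junb and Egr1 gave the state its name, their calls are a description and support nothing. Which early genes passed depended on the method. DESeq2 also called Fosb, Egr2, Zfp36, Junb and Egr1, but not Btg2 (DESeq2 adjusted p = 0.145). It called early genes that limma did not, such as Ier2 (3.81e-04), Jun (1.31e-04), Nr4a3 (1.31e-04) and the state marker Atf3 (0.00154). Most DESeq2 calls higher were of genes read in few cells. Only 13 of them had 5 or more reads in at least 20% of the Fos-high cells of every set. Of these 13, 8 were early genes, with the state markers Junb, Egr1 and Atf3 among them. Of the 30 DESeq2 calls lower, 5 were read that widely in Fos-low cells. At an unadjusted p under 0.05, limma had 236 genes higher (2.56%) and 93 lower (1.01%). Without WT June5 limma called 13 genes higher. It called Egr1 and Junb without WT June29, Egr1 and Fosb without WT batch 2, and only Egr1 without Aire-/- batch 2. Egr2, Zfp36 and Btg2 thus passed with all sets and without WT June5, but not without any of the other 3.

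Among the AP-1 genes, Fosb, the closest relative of Fos, was nearly absent from Fos-low cells. Fosb stood at 100.96, 161.7, 256 and 308 CPM in the summed Fos-high cells of Aire-/- batch 2, WT batch 2, WT June29 and WT June5, and at 0.0907, 0.389, 6.08 and 2.52 CPM in the Fos-low cells of the same sets. Each summed Fos-high level lay above each summed Fos-low level. This concerns sums and not single cells, and the share of all genes with such a pattern was not counted. Fosb had 5 or more reads in 56.6% of Fos-high cells (77 cells) and in 4.6% of Fos-low cells (4 of 87). Fosb rose by 3.98 on the log2 scale of cell means (SE 0.43, limma adjusted p = 0.00228, with a range of 2.86e-07 to 0.0803 over the limma fits), in 4 of 4 sets. The edgeR log2 fold of the sums was 7.55 (SE 1.00, adjusted p = 1).

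Junb, a Jun protein that pairs with Fos, is a state marker, and its values are a description. Junb stood at 1348, 2176, 1270 and 1871 CPM in the Fos-high cells of Aire-/- batch 2, WT batch 2, WT June29 and WT June5, against 463, 555, 454 and 352 CPM in the Fos-low cells of those sets. Here too the sums of the classes did not overlap, and again the share of all genes with such a pattern was not counted. The difference of cell means was 3.26 on the log2 scale. Junb was read in 99.3% of Fos-high and 79.3% of Fos-low cells, so most Fos-low cells also held it. Jun, the other main partner of Fos, stood at 355, 552, 778 and 512 CPM in the Fos-high cells of Aire-/- batch 2, WT batch 2, WT June29 and WT June5, and at 163.6, 78.7, 140.9 and 221 CPM in their Fos-low cells. Each Fos-high value lay above each Fos-low value, yet the difference of cell means of 2.91 (SE 0.56) did not pass limma (adjusted p = 0.175, with a range of 0.00531 to 0.998 over the limma fits). Jund, the Jun protein that is expressed in resting cells, differed by 0.83 on the log2 scale (SE 0.49) and did not pass.

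Atf3, a stress-induced factor that pairs with Jun proteins, was the state marker with the least even pattern. It was read in 12 of 39 Fos-high cells of Aire-/- batch 2, 17 of 54 of WT batch 2, 20 of 35 of WT June29 and 2 of 8 of WT June5, and in 4 of 29, 3 of 22, 6 of 27 and 4 of 9 Fos-low cells of the same sets. In WT June5 the mean over cells was lower in Fos-high cells by 0.77 on the log2 scale while the summed level was higher, at 1277 CPM in Fos-high and 371 CPM in Fos-low cells, with 78.2% of those Fos-high reads in 1 cell. In the other sets the Fos-high cells had the higher mean, by 1.32 in Aire-/- batch 2, 1.34 in WT batch 2 and 3.33 in WT June29. Of the state markers other than Fos, which set the classes, Junb and Egr1 had higher cell means in Fos-high cells of all 4 sets and Atf3 in 3. Of the 8 AP-1 members tested by limma, Fosb passed, besides the state marker Junb, whose call is a description. Of all genes tested 0.0651% passed. With Junb included, 4 of the 8 were higher in every set, against 8.07% of all genes. The median difference of the 8, with Junb and Atf3 among them, was 1.07 on the log2 scale, beside 0.03 over all genes. Fosl2, Batf and Maff, further members of the family, were read in 15.4%, 28.7% and 13.2% of Fos-high cells and in 12.6%, 18.4% and 20.7% of Fos-low cells.

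**Figure D2:**
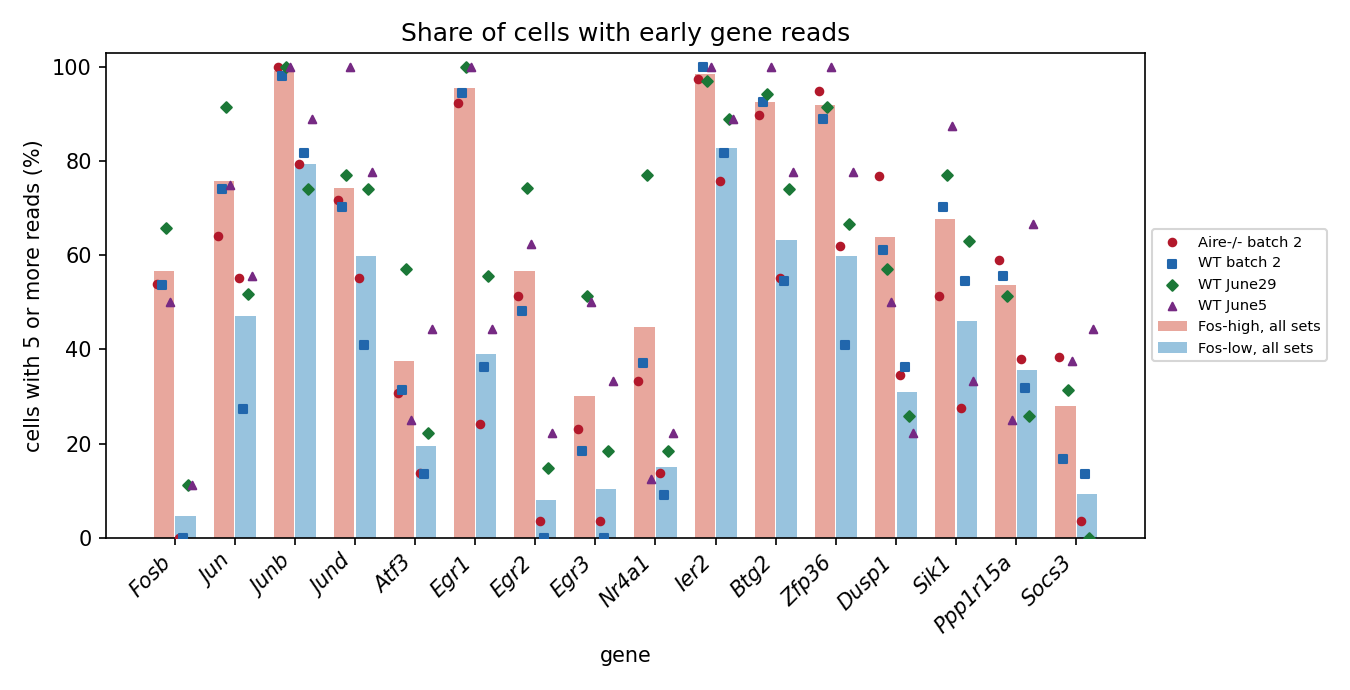
Share of cells with 5 or more reads of each of 16 early genes in Fos-high cells (left bar) and Fos-low cells (right bar) over all sets, with the share in each set as a point. Fosb and Egr2 are each read in 56.6% of Fos-high cells and in 4.6% and 8.05% of Fos-low cells, while Junb and Ier2 are read in most cells of both classes.

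The EGR genes encode zinc-finger factors that act early after MAP kinase signals. Egr1, a state marker whose values are a description, had the largest difference of cell means among the genes of these lists, at 5.84 on the log2 scale. It stood at 503, 758, 1465 and 1534 CPM in the Fos-high cells of Aire-/- batch 2, WT batch 2, WT June29 and WT June5, and at 53.8, 70.9, 117.6 and 446 CPM in the Fos-low cells of these sets. It was read in 95.6% of Fos-high and 39.1% of Fos-low cells. Egr2 stood at 253, 369.7, 551 and 363 CPM in the Fos-high cells of Aire-/- batch 2, WT batch 2, WT June29 and WT June5, and at 7.53, 0.0778, 13.6 and 88.1 CPM in their Fos-low cells. The sums of the classes did not overlap, a pattern not counted over all genes, and in WT June5 1 cell held 88.4% of the Fos-low reads. Egr2 rose by 3.90 on the log2 scale (SE 0.48, limma adjusted p = 0.00441, with a range of 3.53e-07 to 0.339 over the limma fits), in 4 of 4 sets. Egr3 was read in 30.1% of Fos-high and 10.3% of Fos-low cells and did not pass (difference 1.40, SE 0.37, in 4 of 4 sets).

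Fosb and Egr2 were not read in the same members alone. Of the Fos-high cells, 43 had 5 or more reads of both, 34 of Fosb without Egr2 and 34 of Egr2 without Fosb. Only 2 members had neither of these nor Egr1, against 50 of 87 Fos-low cells. Nr4a1, an orphan nuclear receptor of the early response, differed between sets. Nr4a1 was read in 27 of 35 Fos-high cells of WT June29 but in 1 of 8 of WT June5, with 20 of 54 in WT batch 2 and 13 of 39 in Aire-/- batch 2. In Fos-low cells it was read in 5 of 27 of WT June29, 2 of 9 of WT June5, 2 of 22 of WT batch 2 and 4 of 29 of Aire-/- batch 2. Its difference of 1.74 (SE 0.85) did not pass over the 4 sets (limma adjusted p = 0.998, with a range of 0.00223 to 1.00 over the limma fits), and was past the threshold at 0.00223 without WT June5.

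Ier2, a small nuclear protein gene of the early response, and Btg2, which restrains the cell cycle and recruits the deadenylation machinery, were among the early genes read in most cells. Btg2 was read in 92.6% of Fos-high and 63.2% of Fos-low cells and stood at 611, 935, 1341 and 657 CPM in the Fos-high cells of Aire-/- batch 2, WT batch 2, WT June29 and WT June5. In the Fos-low cells of the same sets it stood at 366, 199.8, 433 and 795 CPM. The summed level was thus lower in Fos-high cells of WT June5, where 1 cell gave 48.5% of the Fos-low reads, and higher in the other 3 sets. The mean over cells was higher in 4 of 4 sets, and Btg2 rose by 3.30 (SE 0.48, limma adjusted p = 0.0167, with a range of 4.23e-05 to 0.409 over the limma fits). The edgeR log2 fold of its sums was smaller, at 1.05 (SE 0.40). Ier2 stood at 993, 1388, 1146 and 1132 CPM in the Fos-high cells of Aire-/- batch 2, WT batch 2, WT June29 and WT June5, against 468, 221, 443 and 473 CPM in their Fos-low cells. The sums of the classes did not overlap, a pattern not counted over all genes. The difference of cell means of 2.69 (SE 0.45) did not pass (limma adjusted p = 0.0665, with a range of 6.32e-04 to 1.00 over the limma fits). Of the 13 genes of the EGR, NR4A and KLF list tested by limma, Egr2 and Btg2 passed, besides the state marker Egr1, whose call is a description. Of all genes tested 0.0651% passed. With Egr1 included, 8 of the 13 were higher in every set, against 8.07% of all genes, and the median difference was 1.27. Klf4 and Klf6, Krüppel-like factors that are read widely in epithelium, differed little in detection, at 76.5% and 59.6% of Fos-high cells and 67.8% and 69% of Fos-low cells.

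The feedback regulators include the proteins that end an early response. Zfp36, which binds AU-rich messages such as those of early genes and has them degraded, stood at 336, 517, 301 and 679 CPM in the Fos-high cells of Aire-/- batch 2, WT batch 2, WT June29 and WT June5. In their Fos-low cells it stood at 121.9, 110.7, 84.8 and 165.04 CPM, below every Fos-high value, a pattern not counted over all genes. Zfp36 rose by 3.62 (SE 0.49, limma adjusted p = 0.0109, with a range of 2.50e-05 to 0.256 over the limma fits) in 4 of 4 sets, and was read in 91.9% of Fos-high and 59.8% of Fos-low cells. Dusp1, the phosphatase that inactivates MAP kinases, was read in 87 Fos-high and 27 Fos-low cells, with a difference of 2.67 (SE 0.51) in 4 of 4 sets that did not pass (limma adjusted p = 0.175, with a range of 0.00223 to 1.00 over the limma fits). Its summed level in WT June5 was nonetheless lower, at 69.04 CPM in Fos-high and 117.3 CPM in Fos-low cells. Sik1, a CREB-induced kinase, was read in 92 Fos-high and 40 Fos-low cells, with a difference of 2.13 (SE 0.57) that did not pass. Ppp1r15a, which reverses the stress-induced block on translation, and Socs3, a brake on cytokine receptors, had differences of 1.24 (SE 0.71) and 1.12 (SE 0.55), neither past the threshold and each below 0 in WT June5. Of 18 feedback regulators tested by limma, 1 passed, against 0.0651% of all genes tested, and 4 were higher in every set, against 8.07%, with a median difference of 0.76. Nfkbia, the inhibitor of NF-kappaB, was read in 86.8% of Fos-high and 82.8% of Fos-low cells.

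**Figure D3:**
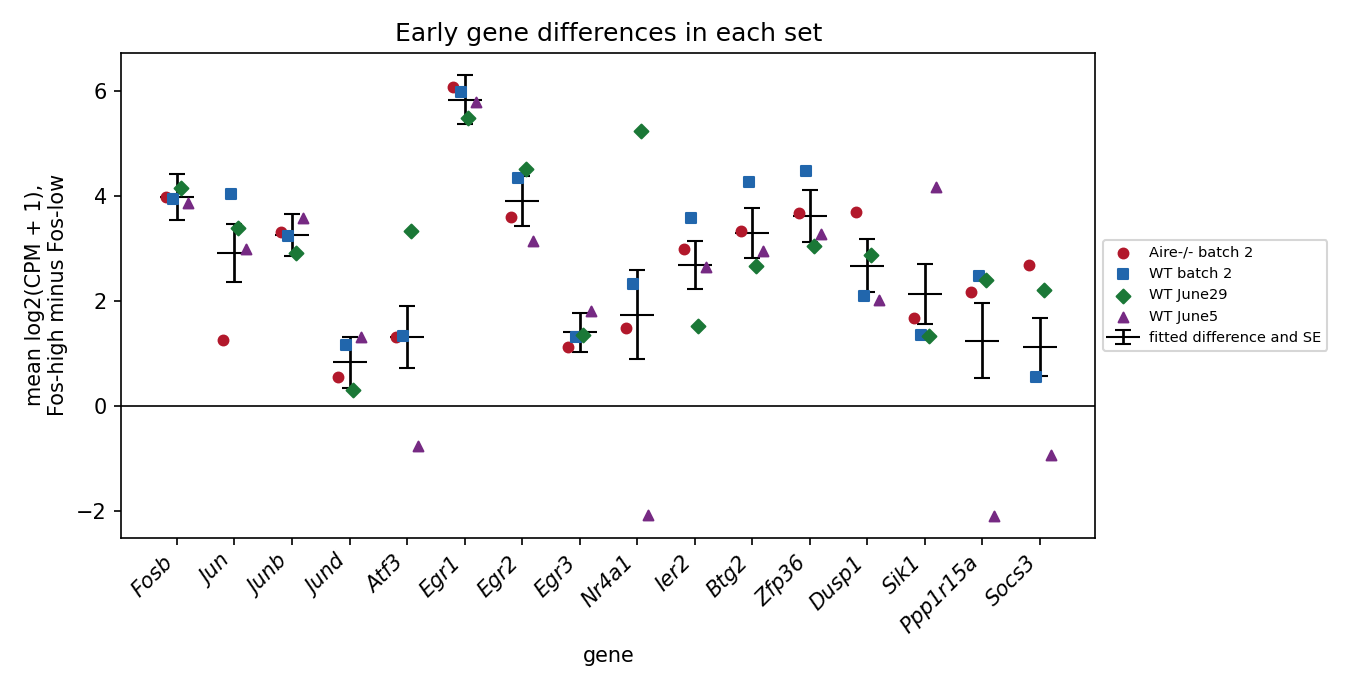
Difference of the mean log2(CPM + 1) between Fos-high and Fos-low cells for 16 early genes in each set (points), with the limma estimate and its standard error in black. Egr1, Fosb, Egr2, Zfp36, Btg2 and Junb lie above 0 in every set, whereas Atf3, Nr4a1, Ppp1r15a and Socs3 lie below 0 in WT June5.

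The list of secreted products and later targets of an early response held genes read in most cells and genes read in few. Of its 21 genes, 6 were read widely enough for limma, none passed and the median difference was 0.12. Hbegf, an EGF receptor ligand, was read in 14.7% of Fos-high and 8.05% of Fos-low cells, and Areg, another such ligand, in 5.15% of Fos-high and 2.30% of Fos-low cells. Il6, Tnf and Cxcl2 were read in 0.735%, 5.15% and 5.88% of Fos-high cells and in 0%, 3.45% and 2.30% of Fos-low cells. Ereg and Lif had no read in either class. Plk2, a kinase with the most reads of this list, was read in 95.6% of Fos-high and 100% of Fos-low cells, and Rgs2, a brake on G protein signals, in 81.6% of Fos-high and 82.8% of Fos-low cells.

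Among the kinases and factors upstream of Fos, none of 13 tested genes of the SRF and CREB pathway passed limma and edgeR called none of 15, and the median difference was 0.10 on the log2 scale. Braf, a kinase at the head of the ERK cascade, was read in 34.6% of Fos-high and 35.6% of Fos-low cells, Map2k1, the next kinase, in 44.9% of Fos-high and 43.7% of Fos-low cells, and Srf in 28.7% of each. The calcium and NFAT signalling list of 14 tested genes had a median difference of -0.11, with none past the threshold. Calm2, a calmodulin gene, was read in 98.5% of Fos-high and 100% of Fos-low cells.

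Stress programs other than the early genes were examined by list. Of 11 heat shock genes tested by limma none passed, and the median difference was 0.46. Hspa1a, the inducible HSP70, was read in 18 of 39 Fos-high cells of Aire-/- batch 2, 17 of 54 of WT batch 2, 26 of 35 of WT June29 and 2 of 8 of WT June5. In Fos-low cells of the same sets it was read in 14 of 29, 6 of 22, 11 of 27 and 6 of 9. The share was higher in Fos-high cells of WT June29 and lower in those of WT June5, the sets in which RNA quality also differed most between classes, and the part of RNA quality was not tested. Dnajb1, its co-chaperone, was read in 66.9% of Fos-high and 48.3% of Fos-low cells. Hsp90ab1, a constitutive chaperone, was read in 100% of Fos-high and 98.9% of Fos-low cells. The integrated and ER stress genes (8 tested, median -0.27, none past the threshold) included Hspa5, read in 82.4% of Fos-high and 77% of Fos-low cells, and Atf4, read in 83.1% of Fos-high and 77% of Fos-low cells. The oxidative stress genes (3 tested, median -0.17, none past the threshold) included Txnrd1, read in 36.8% of Fos-high and 37.9% of Fos-low cells.

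Intermediate cells show whether the early genes changed by steps with Fos. The mean log2(CPM + 1) of Fosb was 0.09 in Fos-low, 1.59 in intermediate and 4.08 in Fos-high cells of Aire-/- batch 2, and 0.25, 1.24 and 4.19 in those classes of WT batch 2. It was 1.01, 2.72 and 5.15 in Fos-low, intermediate and Fos-high cells of WT June29, and 0.99, 3.05 and 4.85 in those of WT June5. The level climbed over Fos-low, intermediate and Fos-high cells in 4 of 4 sets for Fosb, Junb, Jun, Egr1, Btg2, Ier2 and Zfp36, and in 3 of 4 for Egr2, Atf3, Dusp1, Nr4a1, Nr4a3 and Ppp1r15a. For Egr3, Jund, Sik1 and Socs3 it did so in only 2 of 4 sets, and for Ier3 in 1. The share of all genes that climbed in this order was not counted. These are levels and were not tested.

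**Figure D4:**
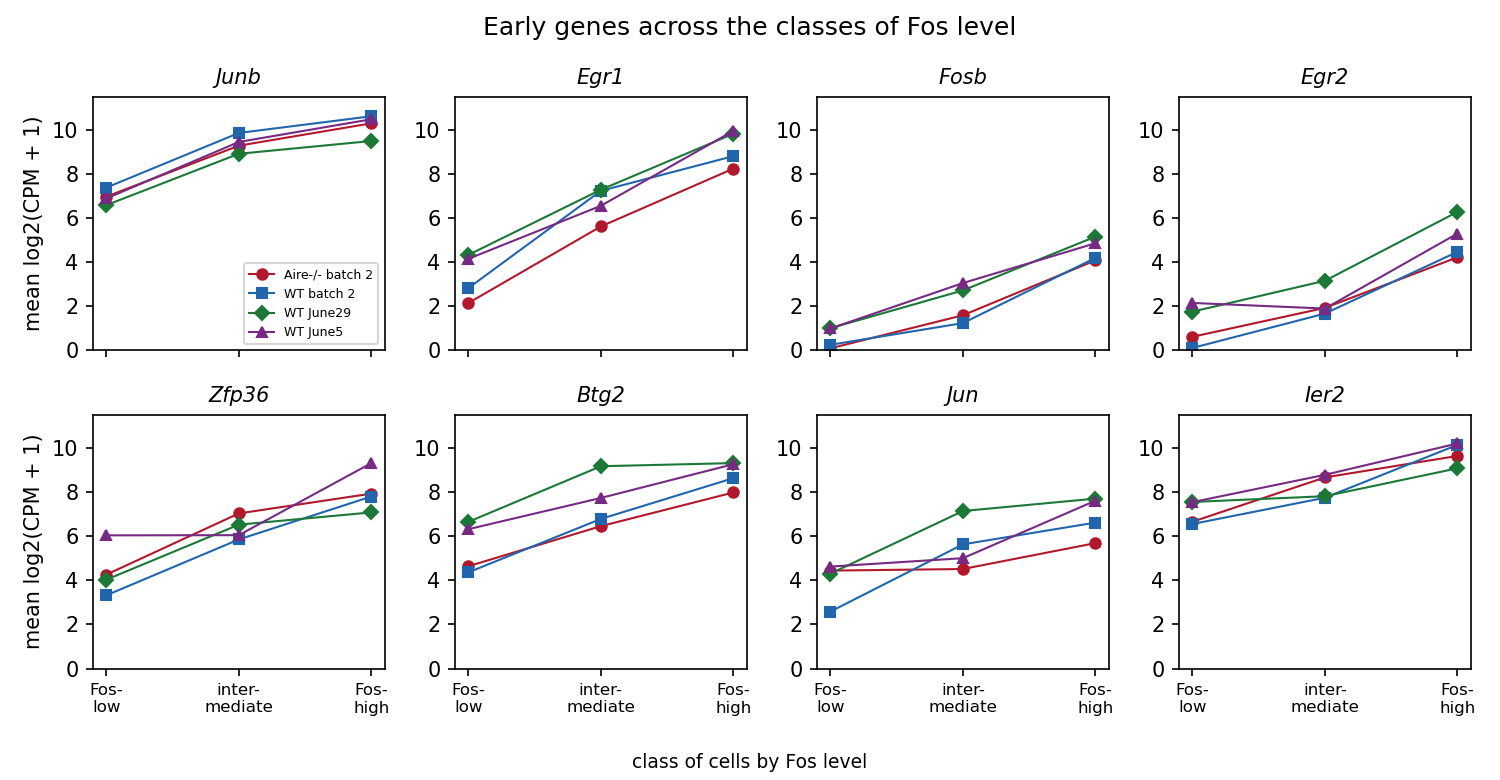
Mean over cells of log2(CPM + 1) in Fos-low, intermediate and Fos-high cells of each set (lines) for 8 early genes. The level climbs over the classes in every set for each gene shown except Egr2, whose intermediate cells of WT June5 (1.89) lie below the Fos-low cells (2.15).

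The early genes were also counted together within single cells. The 6 genes taken were Egr1, Junb, Ier2, Zfp36, Btg2 and Jun, which include the state markers Egr1 and Junb. Nfkbia, Klf4 and Jund were read in 87.4%, 72.4% and 68.4% of kept cells, more than Jun (64.5%), and were not taken. The shares that follow therefore depend on the choice of genes and are a description. All 6 had 5 or more reads in 89 Fos-high cells (65.4%), 33 of 78 intermediate cells (42.3%) and 11 of 87 Fos-low cells (12.6%). The fewest in a Fos-high cell was 3, which occurred in 3 cells, and 3 Fos-low cells had none of the 6. The number of early genes with reads out of all AP-1, EGR and feedback lists had a median over the cells of all sets of 17 in Fos-high and 11 in Fos-low cells, and of 16 and 11 after each cell was thinned to 231697 gene reads. In WT June5 the medians were 18 in Fos-high and 17 in Fos-low cells, and 16 and 17 after thinning. In each other set Fos-high cells had the higher median both before and after thinning. Thinning left out 30 of the 301 kept cells, which were shallower.

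Within the Fos-high class, the rank correlation of other early genes with Fos varied between genes and sets. Spearman's rho between Fos and Junb was 0.37 over 39 cells of Aire-/- batch 2, 0.25 over 54 cells of WT batch 2, 0.24 over 35 cells of WT June29 and 0.14 over 8 cells of WT June5. For Fos and Egr1 it was 0.39 in Aire-/- batch 2, 0.17 in WT batch 2, -0.00028 in WT June29 and 0.31 in WT June5. For Fos and Fosb it was 0.10 in Aire-/- batch 2, 0.17 in WT batch 2, 0.54 in WT June29 and -0.20 in WT June5. Cells of a set share their library preparation, and these coefficients are a description.

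Of 29 tuft core genes tested by limma none passed, 2 were higher in every set and 3 lower, against 8.07% and 3.39% of all genes tested, and the median difference was -0.16. The 8 tested eicosanoid genes had a median of -0.27, with Alox5, the first enzyme of leukotriene synthesis, read in 91.9% of Fos-high and 92% of Fos-low cells. Among cytokine and receptor genes (8 tested, median -0.37, none past the threshold), Il17rb, the receptor chain for IL-25, was read in 67.6% of Fos-high and 78.2% of Fos-low cells, and Il13ra1 in 46.3% of Fos-high and 64.4% of Fos-low cells. The MHC class II list (8 tested, median -0.19) and the MHC class I list (10 tested, median -0.19) had none past the threshold. Cd74, the invariant chain, was read in 67.6% of Fos-high and 62.1% of Fos-low cells, and H2-D1 in all cells of both classes. Interferon response genes (12 tested, median 0.33) had none past the threshold, and Irf7, the interferon-induced factor, was read in 61% of Fos-high and 66.7% of Fos-low cells. In the apoptosis list (7 tested, median 0.08, none past the threshold), Cdkn1a, a cell cycle inhibitor that p53 switches on, was read in 91.2% of Fos-high and 81.6% of Fos-low cells. Pcna was the cell cycle gene with the most reads, in 47.1% of Fos-high and 46% of Fos-low cells, and Mki67, a marker of dividing cells, was read in 1.47% of Fos-high and 0% of Fos-low cells.

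**Figure D5:**
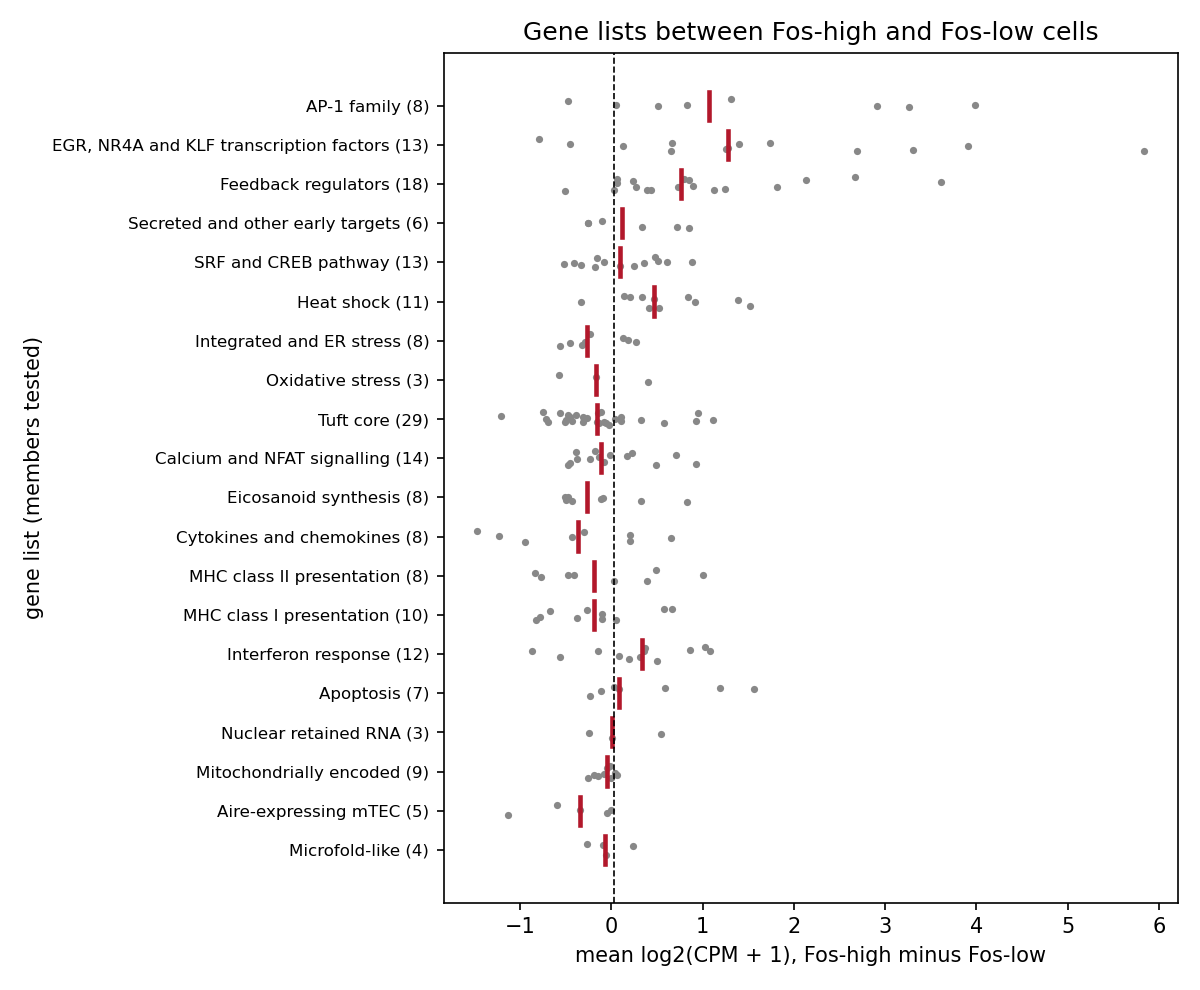
Difference of the mean log2(CPM + 1) between Fos-high and Fos-low cells for each tested gene (grey points) of the lists with 3 or more tested members, with the list's median in red and the median over all genes as a dashed line. The medians of the AP-1 list (1.07), the EGR, NR4A and KLF list (1.27) and the feedback list (0.76) lie furthest right, and those of the tuft lists lie near the dashed line. The AP-1 list includes the state markers Junb and Atf3, and the EGR, NR4A and KLF list includes Egr1.

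The median difference over all genes was not 0 within each set. It was -0.01 in Aire-/- batch 2, 0.16 in WT batch 2, 0.41 in WT June29 and -0.46 in WT June5, so values below 0 in WT June5 and above 0 in WT June29 stand against that shift. Among genes outside the early lists that met conditions of level and detection, those with the lowest unadjusted p in edgeR were Smpdl3a, Taok3, Krt19, Resf1 and Agt. Sums that differed in the same direction in every set were a further condition, so that direction is no result. In cell means, Agt was lower in 4 of 4 sets. Smpdl3a, Taok3 and Resf1 were lower in 3 sets and higher in 1, and Krt19 was higher in 3 and lower in 1. Neither edgeR nor limma called any of these 5, whereas DESeq2 on the same sums called all 5 (adjusted p between 0.0144 and 0.0372). Smpdl3a, a phosphodiesterase gene, stood at 379, 434, 142.6 and 210.5 CPM in the summed Fos-high cells of Aire-/- batch 2, WT batch 2, WT June29 and WT June5, against 717, 635, 318 and 554 CPM in their Fos-low cells. Its edgeR log2 fold was -1.04 (SE 0.21, adjusted p = 1), and 1 cell gave 93.6% of the Fos-high reads in WT June5. Agt, the angiotensin precursor gene, had a log2 fold of -0.90 (SE 0.22), Taok3, a kinase gene, of -1.69 (SE 0.37) and Resf1 of -1.59 (SE 0.37). Krt19, a keratin of simple epithelium, had a log2 fold of 0.71 (SE 0.16), with 1972, 1126, 1544 and 1329 CPM in the summed Fos-high cells of Aire-/- batch 2, WT batch 2, WT June29 and WT June5 and 1118, 564, 936 and 981 CPM in their Fos-low cells.

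Markers of other cell types were summed in each class, and their part in the differences was not tested. Ptprc, which encodes CD45, was read in 28.7% of Fos-high and 31% of Fos-low cells although CD45 was gated out. At least 2 markers of the thymocyte list were read in 4 Fos-high cells and in no Fos-low cell, those of the B cell list in 30 Fos-high and 15 Fos-low cells, and those of the dendritic cell or macrophage list in 2 Fos-high and 3 Fos-low cells. These are counts and not shares, and the Fos-high class was the larger, with 45.2% of kept cells against 28.9% in the Fos-low class. The summed thymocyte markers ranged over sets between 0.883 and 225.6 CPM in Fos-high cells and between 0.468 and 33.1 CPM in Fos-low cells, with Rag1 at 5 reads in no cell. The summed B cell markers ranged between 204 and 302 CPM in Fos-high cells and between 116.1 and 389 CPM in Fos-low cells, led by Cd79b. Dendritic cell or macrophage markers ranged between 0.706 and 201 CPM in Fos-high cells and between 19.1 and 112.5 CPM in Fos-low cells, with Csf1r at 0. Fibroblast markers stayed within 0.278 to 37.3 CPM in Fos-high and 5.68 to 66.9 CPM in Fos-low cells, and erythroid markers within 0 to 4.94 CPM in Fos-high and 0 to 9.02 CPM in Fos-low cells. Endothelial markers reached 248 CPM in Fos-high and 272 CPM in Fos-low cells, mostly from Tek, and Cdh5 was read in 3 Fos-high cells and no Fos-low cell.

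For other thymic epithelium, none of the marker genes tested passed limma. Aire-expressing medullary markers summed to between 232 and 587 CPM in Fos-high cells and between 442 and 1151 CPM in Fos-low cells, led by Cldn4 and Ctsz. Cortical markers summed to between 99.1 and 1966 CPM in Fos-high cells and between 96.4 and 365 CPM in Fos-low cells, with Ctsl the gene with the most reads and Psmb11, the cortex-specific proteasome subunit, at 0. Medullary low markers, led by Ccl21a and Ly6a, summed to between 30.4 and 797 CPM in Fos-high cells and between 18.5 and 98.2 CPM in Fos-low cells. Microfold markers, led by Gp2 and Anxa5, summed to between 1724 and 6727 CPM in Fos-high cells and between 2003 and 2703 CPM in Fos-low cells. Ciliated markers, led by Tppp3 and Dnah5, summed to between 234 and 504 CPM in Fos-high cells and between 85.7 and 737 CPM in Fos-low cells. Corneocyte markers, led by Spink5 and Krt10, reached 317 CPM in Fos-high and 36.3 CPM in Fos-low cells, and neuroendocrine markers, led by Chga and Snap25, reached 63.1 CPM in Fos-high and 73.4 CPM in Fos-low cells. Nuclear-retained RNA, of which Malat1 and Neat1 had the most reads, ranged between 4920 and 16855 CPM in Fos-high cells and between 5171 and 22070.5 CPM in Fos-low cells, with the highest values in WT June29. Mitochondrially encoded genes (9 tested, none past the threshold) had a median difference of -0.05.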

How the data were processed

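Deposited counts are whole-number reads per gene and well, made by the authors with STAR, featureCounts 1.5.3 and Subread on GRCm38, per the submitters' processing notes, which also name R 3.4.0. The annotation and further versions are not stated in the labels. A deposited table of score values, for which the authors' labels state no method, gave only the wells of an alternative choice of cells. Of 48887 table entries, 48441 carried a name in GENCODE M21 or were among the 92 ERCC spike-ins, which were left out of gene reads. Of 314 single-cell wells 13 were left out, 12 for mitochondrial reads and 1 for too few reads or genes. No doublet caller was run.

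Cells are not replicates. Counts were summed per set and class (8 sums) and tested with edgeR 4.0.16 (glmQLFit, TMM normalization, genes with a mean of at least 5 CPM, set as a block). DESeq2 1.42.0 and limma 3.58.1 in R 4.3.3 served as alternatives. limma used cell means of log2(CPM + 1), so its differences are not log2 folds of the summed level. Against the edgeR log2 folds they were larger for Btg2 (3.30 and 1.05), Egr1 (5.84 and 2.99), Zfp36 (3.62 and 1.86) and Junb (3.26 and 1.82). They were smaller for Fosb (3.98 and 7.55) and Egr2 (3.90 and 5.30). A cell counted as having a gene with 5 or more reads. Summed CPM weight cells by their depth, and cell means weight them equally. Intervals are at the 95% level. The edgeR and limma fits were tried on simulated data, and DESeq2 was not.

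The members, the gene lists and the tests were chosen with earlier results of these data known. The genes named are the state markers, the early genes called or with the most reads, the 5 others with the lowest unadjusted p in edgeR with 20 CPM or more in the higher class and reads in 20% or more of its cells in every set, and the members with the most reads of each other list. CPM is not comparable between genes of different length.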

Additional observations from a re-analysis of the deposited data

Results flagged for a closer look

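In 3 of 23 genes screened, the difference between Fos-high and Fos-low cells in WT June5 stood apart from the other 3 sets. WT June5 is the smallest set, with 8 Fos-high and 9 Fos-low cells. The rule was Dixon's criterion for 4 values, which chance meets in about 1 of 20 groups. A screen of 23 genes can thus meet it by chance. The difference of the mean log2(CPM + 1) was -2.87 for Krt19 in WT June5 and between 1.56 and 2.18 in the other sets. For Ppp1r15a it was -2.10 in WT June5 and between 2.18 and 2.48 in the other sets. For Sik1 it was 4.17 in WT June5 and between 1.32 and 1.67 in the other sets.

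A 50-cell well of each genotype lay outside the comparisons, and 7 of the 8 state marker values there were higher than in the no-cell well of batch 1, which held 9892 gene reads. The Aire-/- 50-cell well had 893 CPM of Fos, 704 CPM of Junb, 513 CPM of Egr1 and 96.4 CPM of Atf3, and the WT 50-cell well had 1209 CPM of Fos, 499.6 CPM of Junb, 526 CPM of Egr1 and 434 CPM of Atf3. The no-cell well had 607 CPM of Fos (6 reads), 303 CPM of Junb (3 reads), 505 CPM of Egr1 (5 reads) and 202 CPM of Atf3 (2 reads). In CPM, Atf3 in the Aire-/- 50-cell well thus lay below the no-cell well, and Egr1 in both 50-cell wells lay close to it. The reads themselves were 52 of Atf3 and 277 of Egr1 in the Aire-/- well, and 379 of Egr1 in the WT well. These 2 wells belonged to batch 2 and held 539621 (Aire-/-) and 720527 (WT) gene reads. CPM from the few reads of a batch 1 well cannot serve as their background.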

How the results depend on the processing

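With edgeR no gene was called higher or lower (0%) under every other normalization, filter, class limit, choice of cells or left-out set tried with edgeR except the one named below, including no replicate block (0%), and DESeq2 called 1.16% of tested genes higher and 0.259% lower. The further fits were added after the data were seen. Of tested genes, edgeR called 0.176% higher among those read in 50% of cells (Egr1, Zfp36 and Junb), and limma on cell means called 0.0651% higher. limma called 0.12%, 0.212% and 0.352% higher with genes read in 20%, 30% and 50% of cells, 0.0434% with no replicate block, 0.0651% with a pseudocount of 10 CPM, 0.0542% with thinned cells, 0.0542% with at most 10% mitochondrial reads, 0.0434% without cells with haematopoietic markers, 0.0759% against all other cells, and, with a set left out, 0.141% without WT June5, 0.0217% without WT June29, 0.0217% without WT batch 2 and 0.0108% without Aire-/- batch 2. limma called none lower in any of these. Well numbers only name wells, so the block was the set. With Fos-high set at 500 CPM its share was 55.2% in Aire-/- batch 2 and 51.7% in WT June29, and at 2000 CPM it was 19.8% in Aire-/- batch 2, 44.9% in WT batch 2 and 19.5% in WT June29. Over 23 genes and 751 alternative values the direction turned in 2, both in limma, namely Resf1 (0.43 with at most 10% mitochondrial reads) and Taok3 (0.21 without Aire-/- batch 2), and the cause was not tested. WT June5 had 8 Fos-high and 9 Fos-low cells, which limits what its sums can show.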

Other observations

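The Fos classes also ran through the wells that were left out. Of the 13 wells that failed the filter, 4 had Fos at 1000 CPM or more and 7 had Fos below 50 CPM.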
